A study of Homo sapiens with 9 samples.

Results

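Selenoproteins are proteins that carry the amino acid selenocysteine, and the gene set described here holds the human selenoproteins listed for this work together with the enzymes and binding proteins that make selenocysteine and insert it. The list was chosen by name and had 34 genes. Of these, 32 had a probe set of their own on the array, out of 18417 genes that did, and TXNRD3 and SCLY were measured only by probe sets shared with another gene and are not described further. Each gene was read from its brightest probe set. The values come from H295R, a steroid-producing cell line from a human carcinoma of the adrenal cortex, hybridised to GeneChip Human Gene 1.0 ST arrays. All cells grew for 24 h in growth medium and then spent 48 h in serum-free medium with 10 mM metformin (starved with metformin), in serum-free medium alone (starved), or in growth medium (normal growth). There were 3 arrays per group, lettered A, B and C, and 9 in all. Growth medium held serum and a supplement of insulin, transferrin and selenium, and the starvation medium held none of these, so that the loss of selenium, of serum and of the hormones cannot be told apart.

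Selenocysteine is encoded by UGA, which is otherwise a stop codon. Its reading needs a hairpin in the 3′ untranslated region of the mRNA (the SECIS element), a protein that binds it, a dedicated elongation factor and a tRNA on which selenocysteine is built from serine and selenophosphate. Most selenoproteins are oxidoreductases: glutathione peroxidases remove hydroperoxides, thioredoxin reductases keep thioredoxin reduced, and a further group works in the endoplasmic reticulum. In rodents, the mRNAs of GPX1, SELENOW and SELENOH are among those that drop when selenium is scarce, while those of GPX4 and TXNRD1 are held more steady. The adrenal gland is one of the tissues that hold selenium well, and steroid synthesis in mitochondria is a source of reactive oxygen species. Metformin is a biguanide used against diabetes that slows complex I of the respiratory chain.

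Values are log2 expression values as deposited, normalised together over the 9 arrays by the robust multi-array average (RMA). Arrays correlated at 0.990 to 0.995 within the metformin group, at 0.994 to 0.997 within the starved group, at 0.996 to 0.997 within the normal growth group and at 0.984 to 0.997 between groups (Pearson's r across all features). Of 11 adrenal cortex markers, 9 lay above the median of all probe sets, among them NR5A1, STAR and CYP17A1, while 6 of 7 endothelial, 6 of 7 immune, 5 of 8 fibroblast and 4 of 5 hepatocyte markers lay below it. HSD3B2, a steroidogenic enzyme, was lower in starved than in normal growth cells, with a log2 change of -1.99 (SE 0.09, limma adjusted p = 0.00648). None of the fibroblast, endothelial and immune markers passed an adjusted p of 0.05 in limma in any comparison. At an unadjusted p under 0.05 there were 6 passes in all, where 4.12% to 15.0% of all genes passed per direction and comparison. The largest change was -0.92 among fibroblast markers, in starved against normal growth cells, and 0.77 among immune markers, with metformin against starved cells. Of the hepatocyte markers only the dim CYP3A4 passed an adjusted p of 0.05, lower with metformin in both comparisons.

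Of the 32 measured genes, 27 lay at or above the median of all probe sets and 6 lay above the 90th percentile. The 5 below the median were GPX2, GPX6 and the deiodinases DIO1, DIO2 and DIO3, and all 5 were under the 40th percentile, where signal and background are hard to separate. The genes varied little among replicates, with a median SD of 0.09 on metformin arrays, 0.06 on starved arrays and 0.05 on normal growth arrays. The map of all 32 genes shows that few of them moved far from their normal growth mean, and that SELENOW and SELENOM stood out in opposite directions.

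**Figure D1:**
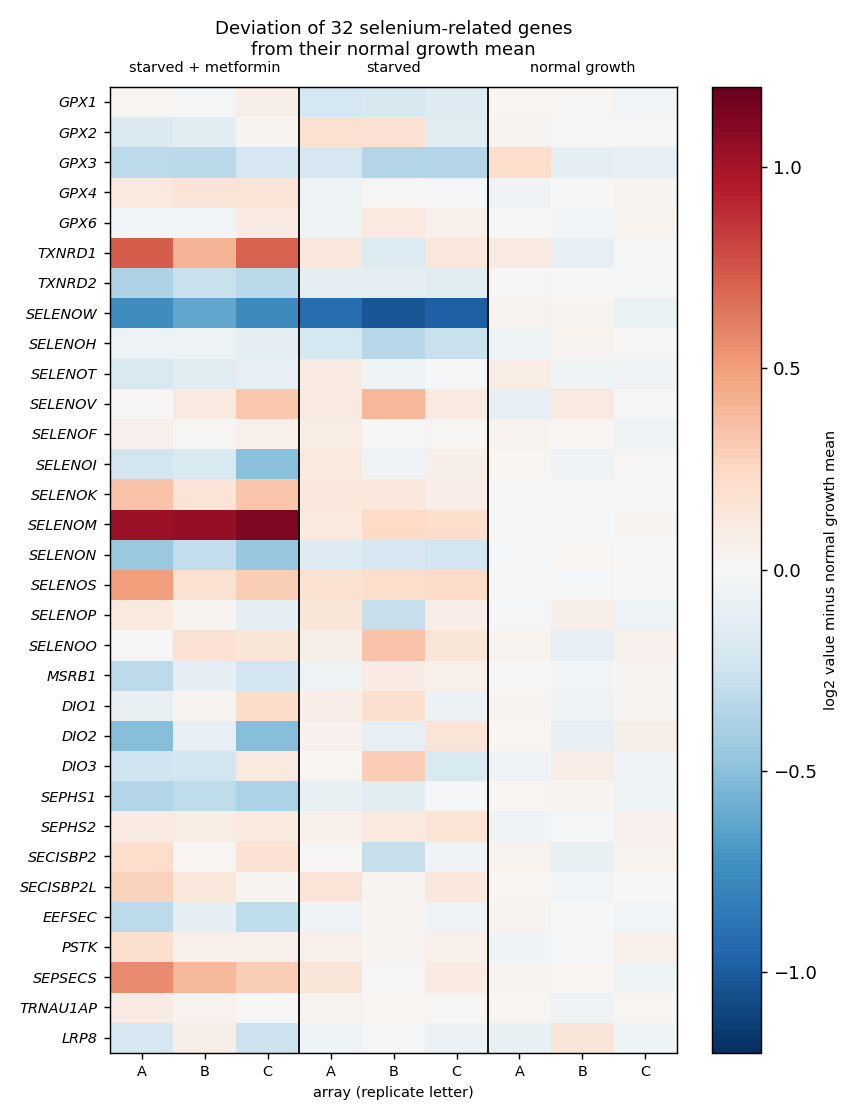
Each cell is the log2 value of 1 gene on 1 array minus the gene's mean over the 3 normal growth arrays, with genes down the page by role and arrays across it by group, starved with metformin at the left, starved in the middle and normal growth at the right. SELENOW is blue on all 6 starved arrays, with or without metformin, SELENOM is dark red on the 3 metformin arrays, and TXNRD1 and SEPSECS are red on the same 3.

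In starved cells 1 of the 32 genes, SELENOW, was lower than in normal growth cells and none was higher at a limma adjusted p under 0.05. The background for this call was 0.163% of all genes lower and 0.0652% higher. At an unadjusted p under 0.05, 6 were lower (GPX1, GPX3, SELENOH, SELENON, SELENOW and TXNRD2, 18.8% of the set), where 5.77% of all genes were, and 3 were higher (SELENOK, SELENOM and SELENOS, 9.38%), where 4.12% of all genes were. The arrays of both groups did not overlap for 12 genes, or 37.5% of the set, against 16.5% of all genes. The median log2 change was 0.034 over the set and -0.0007 over all genes. A rank or permutation test on 3 arrays against 3 cannot give an exact two-sided p below 0.1, so every p here comes from limma's fit across all genes.

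Adding metformin to starved cells raised 1 of the 32 genes, SELENOM, and lowered none at an adjusted p under 0.05 in limma, while 3.14% of all genes were higher and 2.89% lower. By unadjusted p under 0.05, 8 were higher (GPX1, GPX4, SELENOH, SELENOK, SELENOM, SELENOW, SEPSECS and TXNRD1, 25.0% of the set, with 12.3% of all genes) and 7 were lower (DIO2, EEFSEC, MSRB1, SELENOI, SELENON, SEPHS1 and TXNRD2, 21.9%, with 11.3% of all genes). Both groups stood apart without overlap for 16 of the 32 genes and for 30.9% of all genes. The median log2 change was -0.0033 over the set and -0.0261 over all genes. A Student's t-test, which the study's methods name for its general statistics, was also run on these values with Benjamini-Hochberg adjustment. It called SELENOW alone in starved against normal growth cells and SELENOM alone in metformin-treated against starved cells. Over all genes it called 13 higher and 17 lower in the former, and 244 higher and 264 lower in the latter.

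Between starved cells with metformin and normal growth cells, 7 of the 32 genes differed at an adjusted p under 0.05. SELENOM, TXNRD1 and SEPSECS were higher, with 6.15% of all genes, and SELENOW, SELENON, TXNRD2 and SEPHS1 were lower, with 6.36% of all genes. The t-test called 5 of the 32, without TXNRD1 and SEPSECS, and 523 higher and 609 lower over all genes. Counted by unadjusted p under 0.05, 6 genes were higher, beside 13.5% of all genes, and 9 were lower, beside 15.0% of all genes. The groups did not overlap for 18 genes, or 56.2%, and for 35.8% of all genes. The median log2 change was 0.0171 over the set and -0.0201 over all genes. With normal growth array A, B or C left out, SELENOM and SELENOW alone passed, and without metformin array A these passed together with TXNRD2 and SEPHS1. Over all genes, calls fell from 1133 higher and 1172 lower as well. They were 171 to 208 higher and 187 to 201 lower without a normal growth array, and 552 and 662 without metformin array A. This comparison holds both the loss of the growth medium and the drug. The 3 comparisons share arrays pairwise, so that their values are not independent of each other.

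**Figure D2:**
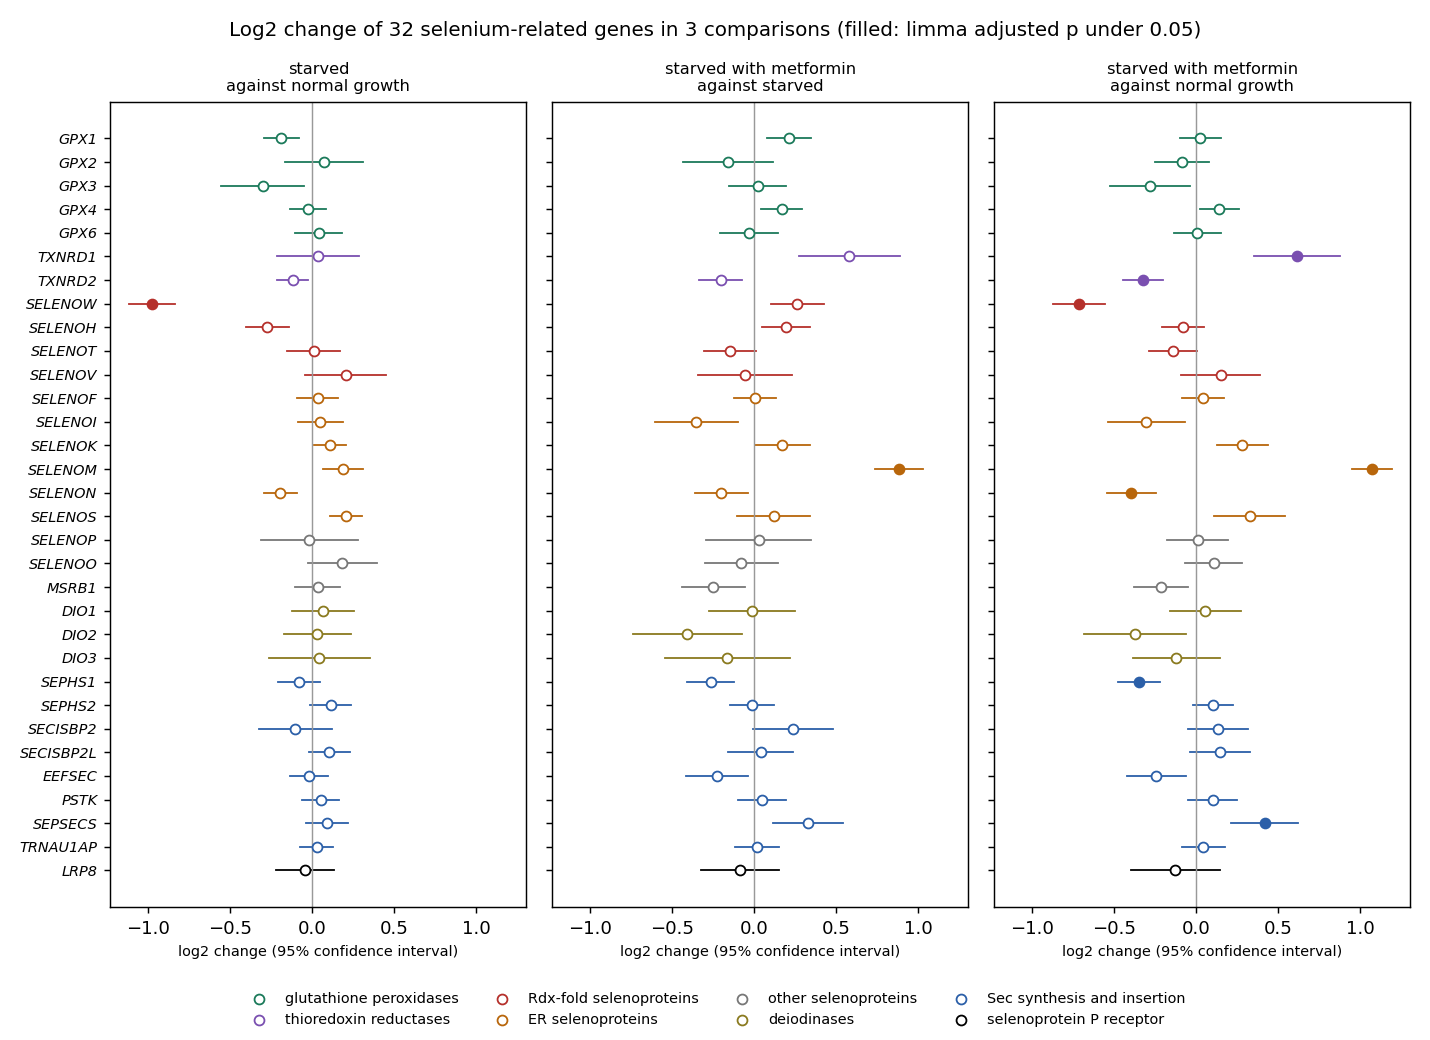
Points are limma's log2 changes of the 32 genes and lines their 95% confidence intervals, in starved against normal growth cells (left), metformin-treated starved against starved cells (middle) and metformin-treated starved against normal growth cells (right). Filled points passed an adjusted p of 0.05: SELENOW at the left, SELENOM in the middle and 7 genes at the right.

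The gene with the clearest response to starvation was SELENOW. It encodes a small redox protein with the thioredoxin-like Rdx fold and is best known from muscle. SELENOW stood at 8.62, 8.51 and 8.55 on starved arrays A, B and C, against 9.58, 9.57 and 9.46 on normal growth arrays. Every starved array was lower than every normal growth array by more than the whole spread within either group. The log2 change was -0.97 (SE 0.06, limma adjusted p = 0.0109), or 1.97-fold lower in starved cells. The arrays read RNA pooled from many cells, so a fall in all cells and a larger fall in some cannot be told apart. Leaving out 1 array kept the change between -1.01 and -0.95, but the adjusted p stayed under 0.05 only without starved array B and was 0.129 at its highest, without starved array C. With the array letter as a replicate block the adjusted p was 0.202.

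With metformin, SELENOW measured 8.79, 8.91 and 8.77, all above the 3 starved values and all below the 3 normal growth values. The log2 change was 0.26 (SE 0.07) from starved cells, with an adjusted p of 0.0929 in limma, and -0.71 (SE 0.06) from normal growth cells, with an adjusted p of 0.00583. The change from normal growth passed with each array left out in turn. SELENOW was called lower than in normal growth in both starved groups.

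SELENOH, a nuclear Rdx-fold protein, gave smaller differences. Its values were 6.96, 6.96 and 6.90 with metformin, 6.81, 6.68 and 6.76 in starved cells and 6.97, 7.07 and 7.03 in normal growth cells. The starved arrays were the lowest, without overlap with either of the other groups. The log2 change in starved against normal growth cells was -0.27 (SE 0.05, unadjusted p = 0.00249), which did not pass across all genes (limma adjusted p = 0.205). The change with metformin was 0.19 (SE 0.06) from starved cells, with an adjusted p of 0.143, and -0.08 from normal growth cells, with a 95% confidence interval of -0.21 to 0.05. The other Rdx-fold genes passed in no comparison: SELENOT, an abundant protein of the endoplasmic reticulum and Golgi, had changes between -0.15 and 0.01, and SELENOV, known from testis, between -0.06 and 0.21. A second probe set for SELENOT gave -0.14 with metformin against starved cells, close to the -0.15 of the first.

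Among the glutathione peroxidases, none of 5 passed an adjusted p of 0.05 in limma in any comparison, while 2 were lower in starved than in normal growth cells at an unadjusted p under 0.05, where 5.77% of all genes were. GPX1, the cytosolic enzyme, was at 10.01, 9.97 and 10.07 with metformin, at 9.78, 9.80 and 9.84 in starved cells and at 10.02, 10.00 and 9.96 in normal growth cells. The starved arrays lay below all others, and the metformin and normal growth arrays overlapped. The log2 change was -0.19 (SE 0.04, unadjusted p = 0.00474, adjusted p = 0.262) in starved against normal growth cells and 0.21 (SE 0.05, adjusted p = 0.0975) with metformin against starved cells. Against normal growth the metformin arrays differed by 0.02, with an interval of -0.10 to 0.15. A second, dimmer GPX1 probe set gave -0.10 (SE 0.15) for starvation, with overlapping groups, and did not show the pattern of the first.

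GPX3, the form secreted into plasma, read 6.15, 6.14 and 6.26 with metformin, 6.26, 6.12 and 6.11 in starved cells and 6.67, 6.36 and 6.36 in normal growth cells. Normal growth array A lay well above its replicates. The change was -0.30 (SE 0.10) in starved against normal growth cells, with an adjusted p of 0.494 in limma, and -0.28 (SE 0.10) with metformin against normal growth. Without normal growth array A the starvation change was -0.20. GPX4 reduces lipid hydroperoxides within membranes and is the enzyme that guards against ferroptosis. It gave 11.99, 12.02 and 12.03 with metformin, 11.81, 11.88 and 11.85 in starved cells and 11.83, 11.88 and 11.90 in normal growth cells. Starved and normal growth arrays overlapped for GPX4 and the metformin arrays were the highest, with a change of 0.17 (SE 0.05, adjusted p = 0.148) from starved cells. GPX2 and GPX6 were dim, and their groups overlapped in all 3 comparisons.

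Both measured thioredoxin reductases differed between metformin-treated and normal growth cells, in opposite directions. TXNRD1 is the cytosolic enzyme and TXNRD2 the mitochondrial one. TXNRD1 stood at 10.90, 10.58 and 10.88 with metformin, at 10.30, 10.01 and 10.31 in starved cells and at 10.28, 10.07 and 10.16 in normal growth cells. Starved and normal growth arrays overlapped, all metformin arrays were higher, and array B was the lowest of each group. TXNRD1 was 1.53-fold higher with metformin than in normal growth (log2 change 0.62, SE 0.11, limma adjusted p = 0.0241). This call held in 10 of 16 alternative settings. Against starved cells the change was 0.58 (SE 0.13), with an adjusted p of 0.0651 that passed 0.05 in 5 of 16 alternative settings. Starvation alone gave 0.04, with an interval of -0.22 to 0.29.

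TXNRD2 measured 8.75, 8.86 and 8.81 with metformin, 9.015, 9.015 and 8.997 in starved cells and 9.14, 9.13 and 9.11 in normal growth cells. The 3 groups formed 3 separate steps with no overlap, lowest with metformin. The log2 change was -0.32 (SE 0.05, limma adjusted p = 0.0187) with metformin against normal growth, -0.20 (SE 0.05, adjusted p = 0.103) with metformin against starved cells and -0.12 (SE 0.04, adjusted p = 0.462) in starved against normal growth cells. Only the first passed.

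**Figure D3:**
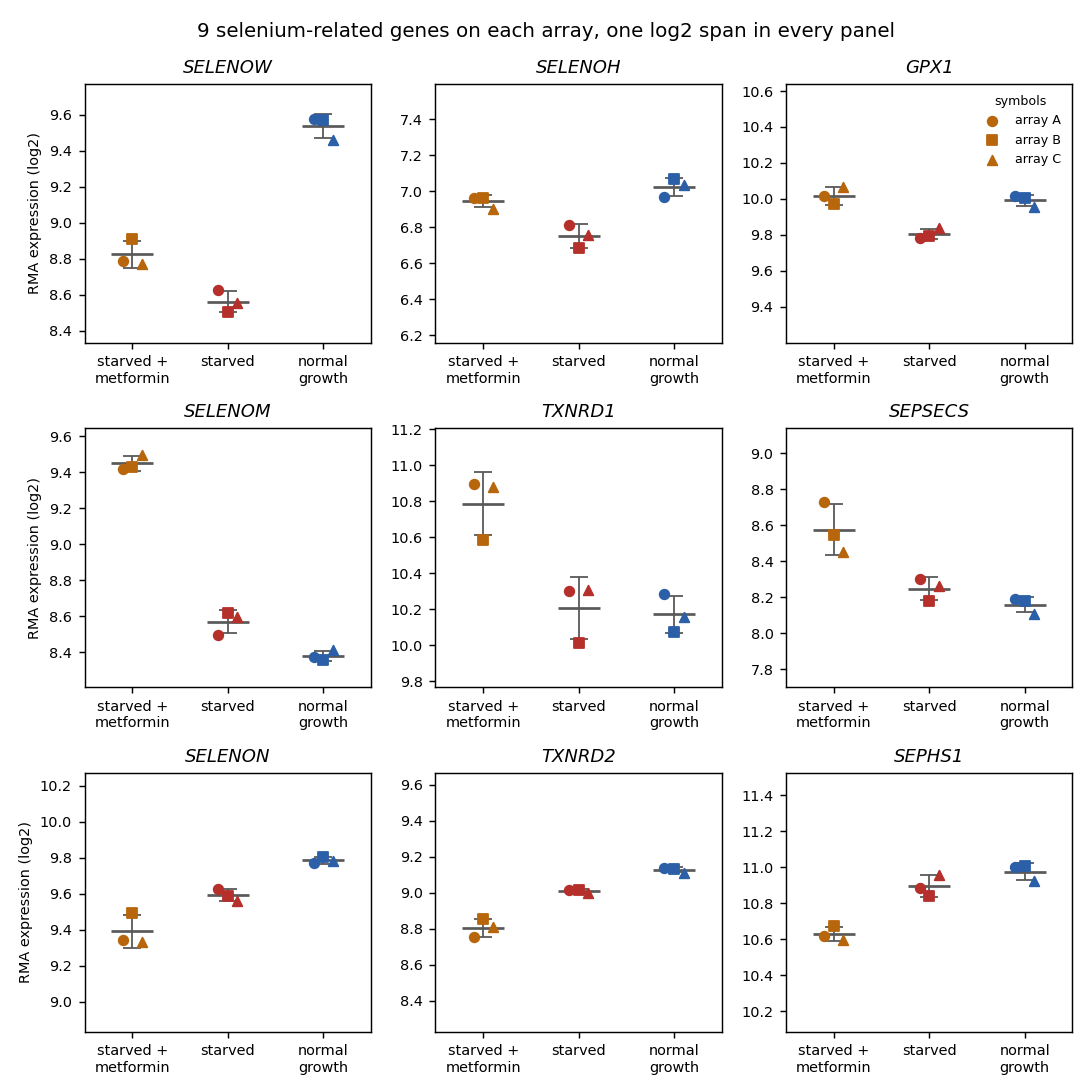
Log2 expression values of 9 genes on each array, in starved cells with metformin (left), starved cells (middle) and normal growth cells (right) of each panel, where symbols give the array letter, long bars the mean and error bars the SD of 3 arrays. SELENOW separates both starved groups from normal growth, SELENOM and TXNRD1 separate the metformin arrays from the rest, and TXNRD2 and SELENON form 3 steps with metformin lowest.

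The selenoproteins of the endoplasmic reticulum gave the largest rise and also a fall. SELENOM is a thioredoxin-like protein of this compartment linked to calcium handling in neurons. SELENOM had 9.42, 9.43 and 9.50 on metformin arrays, 8.497, 8.615 and 8.595 on starved arrays and 8.38, 8.36 and 8.41 on normal growth arrays. The metformin arrays stood far above the others, and the starved arrays stood slightly above normal growth. The log2 change was 0.88 (SE 0.06, limma adjusted p = 0.0118) with metformin against starved cells, or 1.84-fold, and 1.07 (SE 0.05, adjusted p = 0.00215) with metformin against normal growth, or 2.10-fold. In starved against normal growth cells it was 0.19 (SE 0.05, unadjusted p = 0.00899, adjusted p = 0.340). Leaving out 1 array kept the change against starved cells between 0.84 and 0.90, and its adjusted p stayed under 0.05 only without metformin array B or C, while the change against normal growth passed with each array left out in turn.

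SELENON, an endoplasmic reticulum protein whose loss causes a congenital muscle disease, moved the other way. It read 9.34, 9.49 and 9.33 with metformin, 9.63, 9.59 and 9.56 in starved cells and 9.77, 9.81 and 9.78 in normal growth cells, again 3 steps without overlap. The log2 change was -0.40 (SE 0.06, limma adjusted p = 0.0183) with metformin against normal growth, -0.20 (SE 0.07, adjusted p = 0.163) with metformin against starved cells and -0.19 (SE 0.04, adjusted p = 0.235) in starved against normal growth cells.

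SELENOS and SELENOK are membrane proteins that take part in the removal of misfolded proteins from the endoplasmic reticulum. SELENOS gave 9.07, 8.75 and 8.87 with metformin, 8.75, 8.78 and 8.80 in starved cells and 8.58, 8.56 and 8.57 in normal growth cells. Both starved groups lay above normal growth, and metformin array B sat among the starved values. The change was 0.21 (SE 0.04, adjusted p = 0.189) in starved against normal growth cells and 0.33 (SE 0.09, adjusted p = 0.0794) with metformin against normal growth. SELENOK had a change of 0.11 (SE 0.04, adjusted p = 0.555) in starved against normal growth cells and 0.28 (SE 0.06) with metformin against normal growth, where its adjusted p of 0.0503 fell just outside the threshold. Without metformin array B, on which SELENOK stood at 9.597 beside 9.78 and 9.76 on arrays A and C, this call passed. With no array left out, SELENOK also passed in a fit of all 9 arrays, after further quantile normalisation and without dim probe sets. Single-symbol probe sets alone and trended and robust eBayes gave the same call. The remaining settings did not call it.

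SELENOI, the ethanolamine phosphotransferase that makes phosphatidylethanolamine, measured 8.90, 8.95 and 8.62 with metformin, 9.24, 9.09 and 9.20 in starved cells and 9.16, 9.09 and 9.14 in normal growth cells. All metformin arrays were lower than all others, with array C the lowest, and the change was -0.35 (SE 0.10, limma adjusted p = 0.129) from starved cells. SELENOF, which binds the enzyme that checks glycoprotein folding, was bright and had changes between 0.01 and 0.04.

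Of the 3 remaining selenoproteins none passed an adjusted p of 0.05 in limma, and MSRB1 alone had unadjusted p-values under 0.05. SELENOP, the plasma protein that carries selenium between organs, had 9.34, 9.26 and 9.11 with metformin, 9.37, 8.95 and 9.31 in starved cells and 9.21, 9.30 and 9.17 in normal growth cells. All 3 groups overlapped, and the change in starved against normal growth cells was -0.02 with an interval of -0.31 to 0.28, which is wide because starved array B was low. MSRB1, which repairs oxidised methionine, read 7.93, 8.14 and 8.01 with metformin, 8.18, 8.35 and 8.30 in starved cells and 8.25, 8.21 and 8.27 in normal growth cells. The metformin arrays were the lowest, with a change of -0.25 (SE 0.08, adjusted p = 0.154) from starved cells, while starvation itself gave 0.03 with an interval of -0.11 to 0.17. SELENOO, a mitochondrial protein that transfers AMP to other proteins, had changes between -0.08 and 0.18.

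LRP8 is a receptor that takes up SELENOP. It stood at 7.71, 7.99 and 7.67 with metformin, 7.86, 7.90 and 7.85 in starved cells and 7.82, 8.06 and 7.86 in normal growth cells. The groups overlapped in every comparison, and the interval of the starvation change was -0.22 to 0.13.

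The deiodinases, which activate thyroid hormone (DIO1 and DIO2) or inactivate it (DIO3), were dim. DIO2 gave 4.24, 4.65 and 4.24 with metformin, 4.80, 4.65 and 4.90 in starved cells and 4.78, 4.65 and 4.83 in normal growth cells. Array B had the same value in all 3 groups, while arrays A and C were lower with metformin, and the change of -0.41 (SE 0.14) from starved cells had a limma adjusted p of 0.170. DIO1 and DIO3 overlapped between groups in all 3 comparisons.

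Of the 8 measured genes that make and insert selenocysteine, none passed an adjusted p of 0.05 in limma in starved against normal growth cells or with metformin against starved cells. At an unadjusted p under 0.05, none of the 8 passed for starvation, where 4.12% of all genes were higher and 5.77% lower. With metformin against starved cells SEPSECS was higher, beside 12.3% of all genes, and SEPHS1 and EEFSEC were lower, beside 11.3%. Counts among 8 genes are too small to set these genes apart from all genes. SEPSECS carries out the last step of selenocysteine synthesis on its tRNA. SEPSECS measured 8.73, 8.55 and 8.45 with metformin, 8.30, 8.18 and 8.26 in starved cells and 8.19, 8.18 and 8.11 in normal growth cells. All metformin arrays were the highest. The change was 0.42 (SE 0.08, limma adjusted p = 0.0346) from normal growth and 0.33 (SE 0.09, adjusted p = 0.105) from starved cells. The first call held in 8 of 16 alternative settings, and of those that left out 1 array only the one without metformin array C kept it.

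SEPHS1 is the paralogue of selenophosphate synthetase without that activity, and SEPHS2 is the enzyme itself and a selenoprotein. SEPHS1 had 10.62, 10.67 and 10.59 with metformin, 10.88, 10.84 and 10.96 in starved cells and 10.998, 11.007 and 10.922 in normal growth cells. The metformin arrays lay below all others, with a change of -0.35 (SE 0.05, limma adjusted p = 0.0171) from normal growth and -0.27 (SE 0.06, adjusted p = 0.0688) from starved cells. SEPHS2 read 9.40, 9.39 and 9.42 with metformin, 9.36, 9.42 and 9.47 in starved cells and 9.26, 9.29 and 9.35 in normal growth cells. Its normal growth arrays were the lowest by a small margin, and the starvation change of 0.11 had an interval of -0.01 to 0.24.

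SECISBP2 binds the SECIS element and is needed for insertion. It stood at 10.52, 10.33 and 10.48 with metformin, at 10.32, 10.03 and 10.27 in starved cells and at 10.35, 10.22 and 10.36 in normal growth cells. As for TXNRD1, array B was the lowest of each group. The metformin arrays lay above the starved arrays, with a change of 0.24 and an interval of -0.01 to 0.48, and starvation gave -0.10 with an interval of -0.33 to 0.12. EEFSEC, the elongation factor for selenocysteine, had a change of -0.24 (SE 0.07, adjusted p = 0.106) with metformin against normal growth. For SECISBP2L, PSTK (the kinase that acts before SEPSECS) and TRNAU1AP (a partner of the selenocysteine tRNA), changes lay between 0.02 and 0.15 over the 3 comparisons.

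Other genes of selenium handling and of selenoprotein mRNA control were read from a further list of 22, of which 21 were measured. None passed an adjusted p of 0.05 in limma for starvation, where 3 were lower at an unadjusted p under 0.05, beside 5.77% of all genes. CTH, the enzyme of the transsulfuration pathway that cleaves cystathionine, rose with metformin. It gave 6.47, 6.47 and 6.25 with metformin, 5.56, 5.21 and 5.52 in starved cells and 5.55, 5.43 and 5.31 in normal growth cells, and its change was 0.97 in both comparisons (adjusted p = 0.0197 against starved cells and 0.00637 against normal growth). EIF4A3, NCL and TGS1, which bind or cap selenoprotein mRNAs, were lower with metformin than in normal growth, with changes of -0.33, -0.29 and -0.36. With CTH these were 1 of 21 higher against starved cells, beside 3.14% of all genes, and 1 higher and 3 lower against normal growth, beside 6.15% and 6.36% of all genes. The list's median change was -0.04 for starvation, -0.03 for metformin against starved cells and -0.07 for metformin against normal growth.

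Proteins that do similar work with cysteine, or that pair with selenoproteins, formed a list of 18 with 17 measured. None passed for starvation in limma, with 1 higher at an unadjusted p under 0.05, beside 4.12% of all genes. With metformin against starved cells 1 passed, MSRB3, which was lower (2.89% of all genes were), and with metformin against normal growth 4 were higher (6.15% of all genes). TXN, the thioredoxin that TXNRD1 reduces, was at 11.09, 11.04 and 11.05 with metformin, at 10.67, 10.40 and 10.69 in starved cells and at 10.57, 10.31 and 10.44 in normal growth cells. The metformin arrays were the highest, with a change of 0.62 (SE 0.08, adjusted p = 0.0112) from normal growth and 0.47 (SE 0.09, adjusted p = 0.0520) from starved cells. The other genes higher than in normal growth were GLRX (0.46), GPX7 (0.35) and GSR (0.27), which reduces glutathione.

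TXNRD1 is also a known target of the transcription factor NRF2, and 13 of 15 further NRF2 targets were measured. For starvation none passed in limma. At an unadjusted p under 0.05, 5 were higher for starvation (4.12% of all genes), 6 with metformin against starved cells (12.3%) and 11 with metformin against normal growth (13.5%), and none was lower. At an adjusted p under 0.05, FTL alone was higher with metformin than in starved cells (3.14% of all genes), by 0.65 (SE 0.09, adjusted p = 0.0246), and NQO1, FTL, OSGIN1, ABCC1 and TKT were higher than in normal growth (6.15%). HMOX1, the enzyme that breaks down haem, was at 9.85, 8.67 and 9.86 with metformin, against 8.32, 8.23 and 8.38 in starved cells. On metformin array B HMOX1 stood close to the starved values, and HMOX1 was not called in any comparison. TXNRD1 was lowest on array B in all 3 groups. On metformin array B it stood at 10.58, above its starved values of 10.30, 10.01 and 10.31. The part of NRF2 in the TXNRD1 values was not tested.

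Promoters are shown for SELENOW, the gene that fell in starved cells, and for TXNRD1 and SEPHS1, which moved in opposite directions with metformin against normal growth. They are RefSeq windows on GRCh38.p14 that run from 250 bases before to 50 bases after an annotated start, given 5′ to 3′ on the gene's strand. Only the first listed window of each gene was read. Other starts of a gene were not examined, so a window need not be the promoter in use in these cells. Capitals mark matches on either strand to the core of the antioxidant response element (TGACNNNGC) or to the CARE motif of the amino acid response (TGATGNAA). The windows are SELENOW at chr19:47778453-47778752 on the plus strand, TXNRD1 at chr12:104215529-104215828 on the plus strand and SEPHS1 at chr10:13348244-13348543 on the minus strand.
SELENOW: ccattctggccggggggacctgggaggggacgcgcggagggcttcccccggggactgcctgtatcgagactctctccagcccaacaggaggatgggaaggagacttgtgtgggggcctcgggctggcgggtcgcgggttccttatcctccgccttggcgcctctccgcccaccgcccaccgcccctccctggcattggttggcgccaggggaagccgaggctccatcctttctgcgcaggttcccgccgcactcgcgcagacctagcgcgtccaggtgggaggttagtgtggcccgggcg
TXNRD1: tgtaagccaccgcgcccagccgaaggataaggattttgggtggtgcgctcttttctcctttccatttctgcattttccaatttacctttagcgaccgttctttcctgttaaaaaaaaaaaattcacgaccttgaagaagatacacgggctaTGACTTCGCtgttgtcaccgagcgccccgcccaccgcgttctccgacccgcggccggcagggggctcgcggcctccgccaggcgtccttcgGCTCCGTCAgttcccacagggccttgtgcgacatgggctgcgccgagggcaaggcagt
SEPHS1: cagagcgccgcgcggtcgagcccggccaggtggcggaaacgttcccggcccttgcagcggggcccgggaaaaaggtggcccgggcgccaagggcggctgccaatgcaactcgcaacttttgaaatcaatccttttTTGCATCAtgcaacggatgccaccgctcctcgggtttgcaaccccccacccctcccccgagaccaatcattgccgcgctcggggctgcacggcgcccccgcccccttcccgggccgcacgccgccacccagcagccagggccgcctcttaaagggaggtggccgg
The SELENOW window held neither motif and the TXNRD1 window held 2 matches to the first, 1 on each strand. SEPHS1 had 1 match to CARE, on the strand opposite to the one printed. Windows were matched for 31 of the 34 listed genes, and the antioxidant response core occurred in 6 of them (GPX2, SCLY, SELENOK, SELENON, SELENOP and TXNRD1) and in 13.3% of all 34943 windows. Among these, TXNRD1 was called higher and SELENON lower with metformin against normal growth, and GPX2, SELENOK and SELENOP were not called. CARE occurred in 1 of 31 and in 3.62% of all windows, and the GC box GGGCGG in 25 of 31 and in 44.9% of all windows. The median share of G and C was 67.0% in the windows of the set and 58.7% in all windows. No motif count was adjusted for this difference. The set was read with 1 window per gene, while the share over all windows was not limited in this way. The endoplasmic reticulum stress element ERSE (CCAAT and CCACG 9 bases apart) and its second form, ERSE-II (ATTGG and CCACG 1 base apart), occurred in none of the 31 and in 0.0773% and 0.0544% of all windows. SELENOM, SELENOO and SEPSECS were not matched. These matches describe letters in a window and nothing about binding.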

How the data were processed

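RNA from H295R cells was measured on 9 arrays, 3 in each of 3 groups named by the labels. The authors deposited log2 values computed with RMA, which corrects background, quantile normalises and summarises each probe set. Besides RMA, Affymetrix Expression Console and limma appear in the submitters' processing notes, and Affymetrix Power Tools in the study's methods, with the version of each not given in the sources. Of 33297 features, 19460 carried 1 gene symbol, 1754 several and 12083 none in the platform annotation, and 19429 of the probe sets with 1 symbol were matched to current gene names by Entrez identifier, giving 18417 genes in all. The brightest probe set over all arrays stood for a gene. Values ranged from 1.57 to 13.7 and array medians from 6.04 to 6.16, and no further normalisation was applied.

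Groups were compared pairwise with limma 3.58.1 (lmFit and eBayes, R 4.3.3) on all 33297 features, with Benjamini-Hochberg adjustment over all of them and a threshold of 0.05. The study also required a minimum fold change for its own array calls, which was not applied here. The series describes independent experiments, but no source ties the metformin arrays to separate cultures, and p-values measure the spread between arrays, which may be technical. The number of arrays limits the precision. Every measured gene of the set was counted by role. Values on all arrays were given for genes that passed in any comparison, for genes with an unadjusted p under 0.05 and an absolute log2 change of at least 0.3, and for a fixed group of genes (SELENOW, GPX1, SELENOH, MSRB1, GPX4, TXNRD1, SELENOP, SECISBP2, SEPHS2 and LRP8). The genes, lists, markers and motifs were chosen with earlier results of these data known, and other list members named with values were chosen after their values were seen. Alternatives were other normalisations, filters, eBayes settings, a Student's t-test, a replicate block, array weights and leaving out each array. The fit was tested on simulated data with independent noise and planted changes larger than most seen here. That test does not show how well small changes are found.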

Additional observations from a re-analysis of the deposited data

How the results depend on the processing

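Directions were compared under the alternatives for the 39 changes of the set with an unadjusted p under 0.05 and the 27 called changes of listed genes and markers, over the 3 comparisons, and 0 of either changed. Changes nearer to 0 were not compared, and those compared were chosen by their p on the same arrays. The fit of all arrays, the filters, the eBayes settings, the t-test and the replicate block left the log2 changes as they were. A direction could not change under these settings. For starved against normal growth, the 1 gene called was SELENOW in 9 of 10 settings other than leaving out an array. Over all genes these 9 settings called 3 to 53 higher and 17 to 101 lower, beside 12 and 30. Whether the replicate letters pair the arrays cannot be settled with 3 arrays per group. Of 9 correlations between same-lettered arrays of different groups only 2 were over 0.1. Between normal growth and starved arrays they were 0.02 to 0.13, and -0.11 to 0.04 for unlike letters. Between normal growth and metformin arrays they were -0.16 to 0.01, and -0.11 to 0.18 for unlike letters. Between starved and metformin arrays they were -0.25 to 0.29, and -0.38 to 0.44 for unlike letters. With the letter as a replicate block 0 of the 32 genes were called in each of the 3 comparisons (8, 11 and 12 at an unadjusted p under 0.05 in limma), as were 0 of all genes. Leaving out 1 array gave 0 to 1 calls for starvation, 0 to 1 for metformin against starved cells and 2 to 9 for metformin against normal growth. Calls over all genes also changed when 1 array was left out. For starvation they were 0 to 5 higher and 0 to 11 lower, beside 12 and 30. For metformin against starved cells they were 0 to 406 higher and 0 to 312 lower, beside 578 and 532. For metformin against normal growth they were 171 to 1294 higher and 187 to 1246 lower, beside 1133 and 1172. In the last comparison, 2 genes, SELENOM and SELENOW, were called when normal growth array A, B or C was left out, 4 without metformin array A and 9 without metformin array B. For metformin against starved cells, the count of 1 became 8 in a fit of all 9 arrays (GPX1, SELENOI, SELENOM, SELENOW, SEPHS1, SEPSECS, TXNRD1 and TXNRD2), 2 after quantile normalisation of the gene table, 4 without dim probe sets, 3 with single-symbol probe sets only, 5 with trended and robust eBayes and 4 with array weights. Over all genes these settings called 672 to 1312 higher and 756 to 1192 lower, beside 578 and 532. For metformin against normal growth, the settings other than the replicate block and leaving out an array gave 5 to 9 calls, beside 7. Over all genes those settings called 523 to 1777 higher and 609 to 1751 lower, beside 1133 and 1172. Shifting arrays to a common median moved the median change of all genes by at most 0.0259. The 3 arrays per group and the dim signal of GPX2, GPX6 and the deiodinases limit what small changes could be detected.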
